A study of Mus musculus with 6 samples.

Results

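Class C nuclei were fibroblast nuclei of the mouse left ventricle chosen by the UMI (unique molecular identifier) counts of Nkain2, Fbn2, Pappa, Fgf10 and Vit. A nucleus belonged to the class if these 5 genes summed to at least 2 UMIs and exceeded each of 3 other sums: class A (Kcnip1, Necab1, Tenm4, Tll2 and Col26a1), class B (Gfpt2, Has2, Cd248, Adgrd1 and Duox1) and class D (Postn, Cilp, Thbs4 and Comp). The fibroblast gate required at least 3 UMIs of Pdgfra, Dcn, Abca8a and Col8a1 together, at most 1 UMI of Pecam1, Cdh5 and Rgs5 together, and under 1% of UMIs from Ttn, Ryr2 and Myh6. The rule kept 3052 nuclei of 15135 in the fibroblast gate and of 48438 past quality control. Since these 5 genes chose the nuclei, every difference between class C nuclei and other fibroblast nuclei is given below as a description, with no test.

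The 6 single-nucleus libraries came from left ventricles of male mice aged 12 weeks, with 2 libraries in each of 3 groups. WT-CD mice were wild-type littermates on control diet. R403Q-CD mice were heterozygous for Myh6+/R404Q, a missense allele of the cardiomyocyte myosin heavy chain that models hypertrophic cardiomyopathy, and ate the same control diet. R403Q-EMPA mice carried the same allele and received the control diet with the SGLT2 inhibitor empagliflozin at 0.15 mg/g of diet, about 15 mg/kg of body weight, starting at 9 to 10 weeks of age. By the study protocol, mice taken for RNA sequencing had been treated for 2 weeks, whereas the labels name a longer diet that cannot be reconciled with this start and an age of 12 weeks. The libraries held 31787308 to 45397128 UMIs each, and 261 barcodes past quality control occurred in more than 1 library, 1 of them in class C. The labels do not say that the 2 libraries of a group came from separate mice, so p-values measure only the spread between these libraries, which may be technical. One library stood apart: class D made up 240 of 1664 fibroblast nuclei in R403Q-EMPA replicate 1, against 28 to 65 nuclei in each of the other 5 libraries. Values that rest on that library are given below with those of its partner.

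Cardiac fibroblasts build and remodel the extracellular matrix of the myocardium and release growth factors that act on their neighbours. Of the genes in the rule, Fbn2 encodes a fibrillin of extracellular microfibrils, Pappa a metalloproteinase that cleaves IGF-binding proteins and so frees insulin-like growth factors, Fgf10 a secreted fibroblast growth factor, Vit the matrix protein vitrin, and Nkain2 a membrane protein that interacts with the Na+/K+-ATPase. All 20 fibroblast identity genes outside the gate, among them Col1a1, Col3a1, Tcf21 and Pdgfrb, reached at least 10 CPM (UMIs scaled to a common library total) in class C nuclei of every library. Their summed level was 17297 to 19024 CPM in class C nuclei and 936 to 1545 CPM in endothelial nuclei of the same libraries. Markers of several other cell types were also detected in class C nuclei. Among them, summed levels were 454 to 669 CPM for cardiomyocyte, 115 to 425 CPM for myeloid, 184 to 268 CPM for endocardial and 156 to 268 CPM for endothelial markers. Mesothelial and Schwann cell markers are set out next.

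Of the 3052 nuclei, 84 carried at least 2 UMIs of mesothelial markers (Wt1, Msln, Upk3b, Muc16, Krt19, Upk1b and Lrrn4), which mark the outer lining of the heart, and 49 carried at least 2 UMIs of Schwann cell markers (Sox10, Kcna1 and Gfra3 among them), which mark nerve sheath cells. The 84 nuclei held a median of 7 UMIs of the fibroblast gate genes and the 49 held 10, against 33 in the 2919 other class C nuclei. Nkain2 was the leading rule gene in 69 of the 84 and in 40 of the 49. Nuclei with either marker set made up 7.11% and 5.70% of class C nuclei in the WT-CD libraries, 2.87% and 3.83% for R403Q-CD, with 1.41% and 1.72% in R403Q-EMPA, so their share differed between the groups without overlap. In other fibroblast nuclei the share was 0.91% over all libraries. Values without these 133 nuclei are given below beside many of the results that they change.

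**Figure D1:**
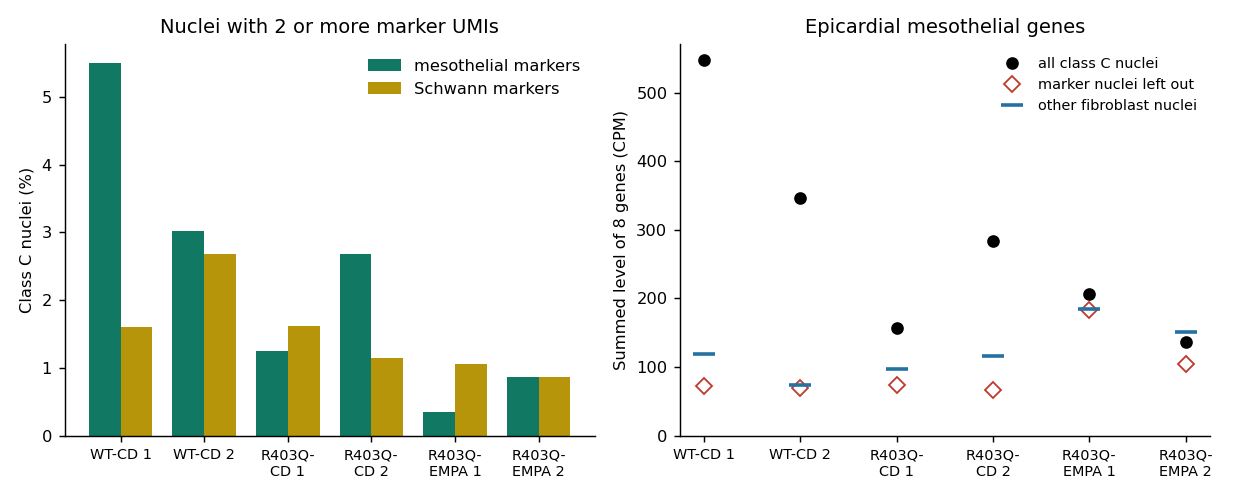
Left, percent of class C nuclei with at least 2 UMIs of mesothelial (green bars) or of Schwann cell (yellow bars) markers in each of the 6 libraries; right, summed CPM of 8 epicardial mesothelial genes in all class C nuclei (black points), with the marker nuclei left out (open diamonds) and in other fibroblast nuclei (blue lines). Mesothelial marker nuclei ranged from 0.35% in R403Q-EMPA replicate 1 to 5.50% in WT-CD replicate 1, and the summed level there was 547 CPM with and 73.1 CPM without marker nuclei.

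Class C nuclei differed in which of the rule genes they held. The median sum of the 5 genes was 5 UMIs, so many absences can be sparse sampling, and whether the class was uniform was not tested. Nkain2 was the leading gene in 1375 nuclei (45.1%), Pappa in 600 (19.7%), Vit in 353 (11.6%), Fgf10 in 322 (10.6%) and Fbn2 in 100 (3.28%), and 302 nuclei had a tie. Fbn2 was detected in 17.2% of class C nuclei, against 52.9% for Nkain2, 47.0% for Pappa, 35.6% for Vit and 30.7% for Fgf10. Of the 3052 nuclei, 1239 (40.6%) had UMIs of only 1 of the 5 genes, 1223 of 2, 465 of 3, 109 of 4, and 16 (0.52%) of all 5. Nkain2 supplied 62.8% of all UMIs of the 5 genes. Of the nuclei with Nkain2, 34.0% also held Pappa, and the Spearman correlation of their UMIs over the 3052 nuclei was -0.25, a description over nuclei that the sum of these same genes had selected.

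The levels of the rule genes in class C nuclei are set out here by library, as what the selection produced. Nkain2 stood at 1855 and 1515 CPM in WT-CD, 1228 and 1301 for R403Q-CD, with 1111 and 1573 in R403Q-EMPA, so the WT-CD and R403Q-EMPA ranges overlapped. Pappa stood at 236 and 381 CPM in WT-CD, 396 and 416 for R403Q-CD, with 346 and 347 in R403Q-EMPA, with the lowest value in WT-CD replicate 1. Fgf10 lay between 127 CPM (R403Q-EMPA replicate 1) and 228 CPM (WT-CD replicate 2), and Vit between 184 and 246 CPM with all groups overlapping. Fbn2 was the rarest, at 57.0 and 73.1 CPM in WT-CD, 95.3 and 73.1 for R403Q-CD, with 176 and 99.0 in R403Q-EMPA. In endothelial nuclei, which should lack these genes and stand for free RNA, Fgf10 was detected in 0.14% of nuclei, Fbn2 in 0.25%, Vit in 0.56%, Nkain2 in 0.71% and Pappa in 0.92%, at median depths of 2240 to 3537 UMIs. Detection in other fibroblast nuclei lay above this background for each gene, from 3.51% for Fbn2 to 10.6% for Pappa. The endothelial nuclei were allowed at most 1 UMI of the fibroblast gate genes, so this background may be too low. The other fibroblast nuclei include those with at least 2 UMIs of these genes that tied with or fell below another class.

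**Figure D2:**
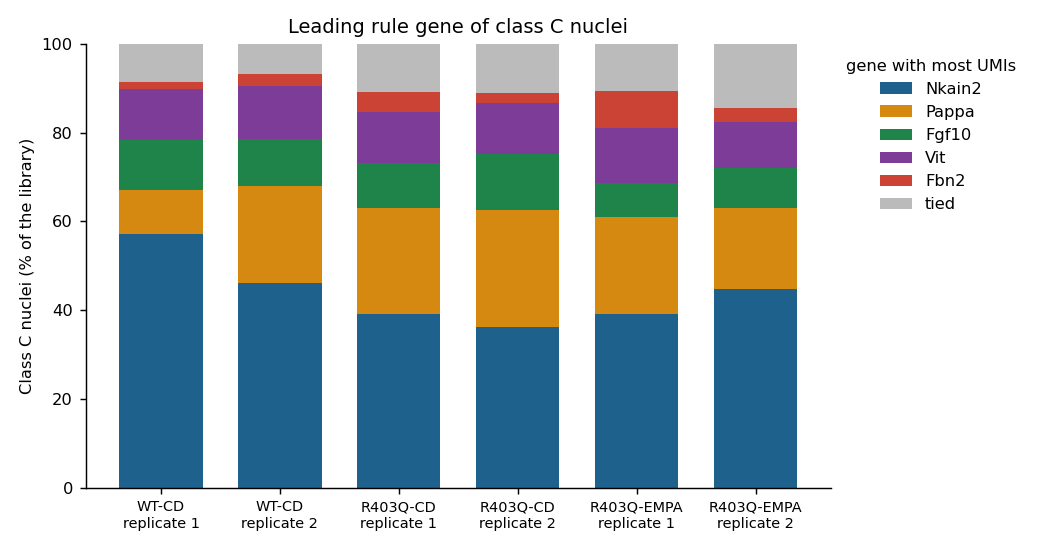
Percent of class C nuclei in each library (vertical axis) by the rule gene with the most UMIs, with ties shown as their own segment. Nkain2 led in the largest share of nuclei in all 6 libraries, from 36.2% in R403Q-CD replicate 2 to 57.2% in WT-CD replicate 1.

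The boundary of the class was soft. The median sum of the 5 genes was 5 UMIs, with an interquartile range of 3 to 10 and a maximum of 174. Just inside the threshold, 499 nuclei had a sum of exactly 2 and 481 exceeded the next sum by only 1 UMI, which together made 718 nuclei (23.5%). Just outside it, 420 fibroblast nuclei had 1 UMI and no competing sum, 350 tied with another class, 968 had 2 or more UMIs but a higher sum in another class, and 8693 had none. Median depth was alike inside and outside the class, at 2571 to 4499 UMIs per class C nucleus and 2509 to 4489 per other fibroblast nucleus.

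Beyond the rule genes, class C nuclei carried higher levels of 58 genes and lower levels of 32, by at least 1.5-fold in each of the 6 libraries, of 7667 genes with a mean of at least 20 CPM in the higher class (0.756% and 0.417%). Among the genes that persisted without marker nuclei, Adra1a, the alpha-1A adrenergic receptor, was higher by a mean log2 ratio of CPM + 1 of 2.76 ± 0.36 (SD, n = 6 libraries), at 20.1 to 98.3 CPM in class C nuclei and 3.2 to 15.4 CPM in the others. Chrm3, the M3 muscarinic receptor, was higher by 1.71 ± 0.30 (mean 180 CPM in class C, against 323 CPM in endothelial nuclei), and Grm8, a metabotropic glutamate receptor, by 1.51 ± 0.67. The lymphangiogenic factor Vegfd was higher by 1.51 ± 0.11, with 81.5 to 102 CPM in the class and 27.7 to 39.6 CPM outside it, so that its ranges over libraries were far apart. Adm, which encodes the vasodilator peptide adrenomedullin, was higher by 1.12 ± 0.27, and Ccn5, a matricellular protein, by 1.56 ± 0.38. Without marker nuclei Adm was at 70.4 CPM in nuclei led by Nkain2 and 38.3 CPM in those led by Fbn2. It was at 18.7, 22.0 and 26.4 CPM in those led by Pappa, Fgf10 and Vit, against 27.4 CPM in class A nuclei. Sgcd, the delta-sarcoglycan of the dystrophin complex, was the most abundant gene of the group, at 3165 to 4924 CPM against 1486 to 2678 CPM, a log2 ratio of 1.02 ± 0.08.

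Other genes of the higher set were the secreted isthmin Ism1 (log2 ratio 2.36 ± 0.44), the aldehyde oxidase Aox3 (1.98 ± 0.22), the lipocalin apolipoprotein Apod (1.53 ± 0.18), the zinc-sensing receptor Gpr39 (1.71 ± 0.41), the methyltransferase Inmt (1.69 ± 0.40), the G protein subunit Gnai1 (1.16 ± 0.10), the ciliary neurotrophic factor receptor Cntfr (1.24 ± 0.18) and the mitochondrial acyl-CoA synthetase Acss3 (1.16 ± 0.15). Each of these kept a positive ratio in every library and against class A and class B nuclei alike. Cnmd (1.88 ± 0.71), Slco1a4 (1.43 ± 0.44) and Thsd7b (1.97 ± 0.89) were higher as well, and Thsd7b was at 47.9 and 53.1 CPM in 2 libraries and at 6.91 to 11.03 CPM in the other 4.

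A separate group of genes depended on the marker nuclei. Slc35f1 (log2 ratio 4.73 ± 0.83), Chl1 (4.03 ± 1.32), Cadm2 (3.54 ± 0.90) and Zfp536 (2.89 ± 0.80) had the largest mean ratios of the 25 named higher genes. Without the 133 marker nuclei their mean ratios were -0.50 for Slc35f1, -0.46 for Chl1, 0.41 for Cadm2 and -0.16 for Zfp536. Ank3 went from 1.85 ± 0.61 to 0.32, while Adam23 went from 2.16 ± 0.68 to 1.22. Chl1 was at 0.00 CPM in each set of class C nuclei led by 1 rule gene once the marker nuclei were left out.

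**Figure D3:**
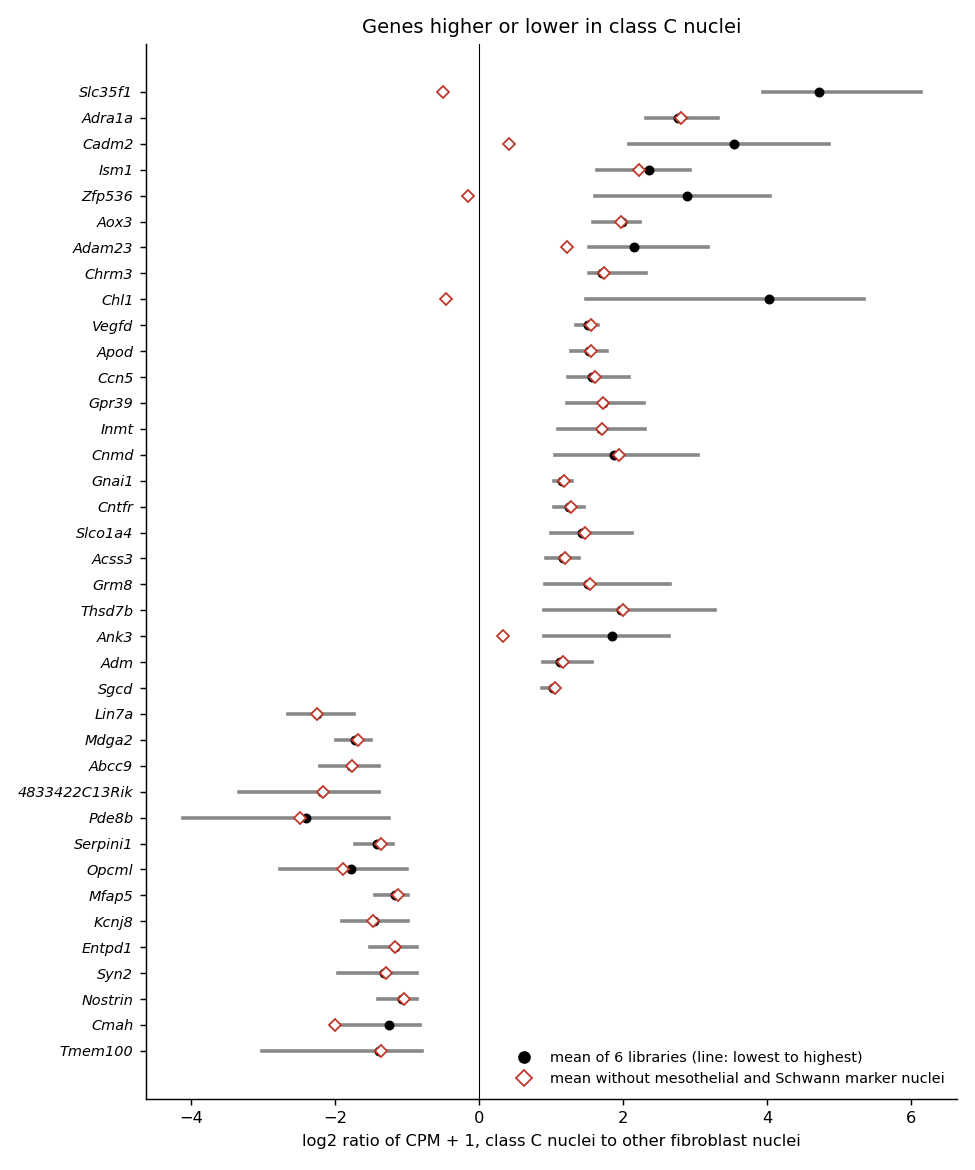
Log2 ratio of CPM + 1 in class C nuclei to CPM + 1 in other fibroblast nuclei (horizontal axis) for named genes, as the mean of 6 libraries (black points), the lowest to highest library (grey lines) and the mean without mesothelial and Schwann marker nuclei (open diamonds). Adra1a, Vegfd and Sgcd keep their ratios in both forms, and Slc35f1, Chl1 and Zfp536 lie below 0 without marker nuclei.

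For several genes lower in class C nuclei the ratio depended on the class compared. Abcc9 and Kcnj8, which form an ATP-sensitive potassium channel, had log2 ratios of -1.78 ± 0.27 and -1.46 ± 0.37. Of the 4 pericyte-list genes above the level limit 3 were lower, and both Abcc9 and Kcnj8 were lower in class C than in class A nuclei but not lower than in class B, where their mean ratios were 0.94 and 0.34. The elastic fibre gene Mfap5 was lower against all other fibroblasts (-1.17 ± 0.17) and against class B (-1.86) but level with class A (0.02). Lin7a (-2.25 ± 0.35), a scaffold protein, and Pde8b (-2.41 ± 1.01), a cyclic nucleotide phosphodiesterase, were lower against the rest yet had positive mean ratios against class A (0.73 and 0.44) and class B (0.69 and 0.28). Class D nuclei held more than class C: 171 CPM of Lin7a and 281 CPM of Pde8b, against 7.53 and 9.02 CPM in class C (mean log2 ratios -3.84 and -4.66), and the ratios of Abcc9 and Kcnj8 to class D were -3.46 and -2.94. Entpd1 (-1.16 ± 0.28) and Syn2 (-1.33 ± 0.43) were lower than in the rest, class A and class B on average. The mean level of Entpd1 was 18.5 CPM in class C, 42.2 CPM in other fibroblasts and 612 CPM in endothelial nuclei. The part of free endothelial RNA was not tested.

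Genes of the pathways named by the rule genes were mostly level between class C and other fibroblasts. Of 15 fibroblast growth factor genes above the level limit none differed by 1.5-fold in all libraries, with Fgfr1 at a log2 ratio of 0.02 ± 0.10, Fgfr2 at 0.03 ± 0.11 and Fgf2 at 0.05 ± 0.13. Of 12 genes of the insulin-like growth factor axis 1 was higher: Igfbp3, a binding protein, at 1.32 ± 0.40. Igfbp4, the best-known substrate of the Pappa protease, had a ratio of 0.38 ± 0.11, Igf1 of 0.52 ± 0.17, and the median of the list was 0.18 against -0.04 for all genes. Of 18 elastic fibre genes Fbln5 was higher (0.74 ± 0.08) and Mfap5 lower, while Fbn1, the adult fibrillin, stood at -0.22 ± 0.17. No collagen of 21 and no WNT gene of 14 differed by this measure.

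Within the class, nuclei led by Nkain2 differed from those led by Pappa, Fgf10 or Vit in a few genes. This split and the genes named for it were chosen after their values were seen, and marker nuclei were left out. Of 7576 genes, 12 were at least 1.5-fold higher and 5 at least 1.5-fold lower in Nkain2-led nuclei of all 6 libraries. Dpp4, a serine protease of the cell surface, averaged 64.9 CPM in Nkain2-led nuclei (34.7 to 88.6) and 16.1 CPM (9.28 to 25.1) in the others. The vasoactive peptide genes Adm, at 74.1 against 20.5 CPM, and Edn1 (endothelin-1), at 33.0 against 12.2 CPM, went the same way, as did Vegfd at 140 against 59.4 CPM. C7, a complement component, showed the reverse, at 142 CPM in Nkain2-led nuclei and 463 CPM in the others, as did the cell adhesion gene Lsamp at 1032 against 2180 CPM. Ccn5, named above for the class as a whole like Adm and Vegfd, was also higher in its Nkain2-led nuclei, at 191 against 76.2 CPM. In nuclei led by Pappa, Fgf10 or Vit, Adm at 20.5 CPM was near its mean of 20.1 CPM in fibroblast nuclei outside the class.

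The share of class C among fibroblast nuclei was compared between the groups next. It was 18.0% and 21.7% in WT-CD, 21.7% and 25.3% for R403Q-CD, with 17.1% and 17.8% in R403Q-EMPA. The R403Q-EMPA libraries lay below the other 4, whereas WT-CD and R403Q-CD overlapped. The gap to WT-CD did not hold under other forms of the rule: without marker nuclei WT-CD replicate 1 was at 17.05% and R403Q-EMPA at 17.07% and 17.7%, with class D not used R403Q-EMPA was at 19.4% and 18.1% against 18.0% in WT-CD replicate 1, and with Nkain2 not counted it was at 12.1% and 11.1% against 9.51% and 14.6%. Both R403Q-EMPA libraries stayed below both R403Q-CD libraries in these 3 forms. The difference of R403Q-EMPA to R403Q-CD was -6.04 percentage points (17.4 ± 0.53% against 23.5 ± 2.59%, SD, n = 2 each), with p = 0.333 in a two-sided exact permutation test over libraries, the smallest that 2 against 2 libraries allow. Between R403Q-EMPA and WT-CD it was -2.40 points (exact p = 0.333), and between R403Q-CD and WT-CD it was 3.64 points (exact p = 0.667), and none of these passed the threshold. All 3 comparisons form 1 family, and adjustment leaves no p below these.

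Because a UMI rule is met more often by deeper nuclei, the shares were computed again after each nucleus was thinned to 1500 UMIs, with 3913 and 2718 nuclei kept in WT-CD, 2512 and 2014 for R403Q-CD, with 1626 and 1857 in R403Q-EMPA. They were then 14.0% and 15.2%, 14.0% and 16.3%, and 11.4% and 13.2%. R403Q-EMPA still lay below R403Q-CD, by -2.83 points (exact p = 0.333), and the difference of R403Q-CD to WT-CD was 0.53 points (exact p = 0.667). Of all nuclei past quality control, class C made up 7.33% and 7.42% in WT-CD, 7.02% and 7.15% for R403Q-CD, with 3.45% and 5.15% in R403Q-EMPA, so that the sign of the R403Q-CD to WT-CD difference turned. The share of class A was also lower in R403Q-EMPA (8.79 ± 0.10%) than in R403Q-CD (20.9 ± 1.03%), and that of class D was higher through replicate 1 (8.59 ± 8.24% against 1.49 ± 0.57%). The shares of the classes sum to a fixed total, so they do not vary independently.

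**Figure D4:**
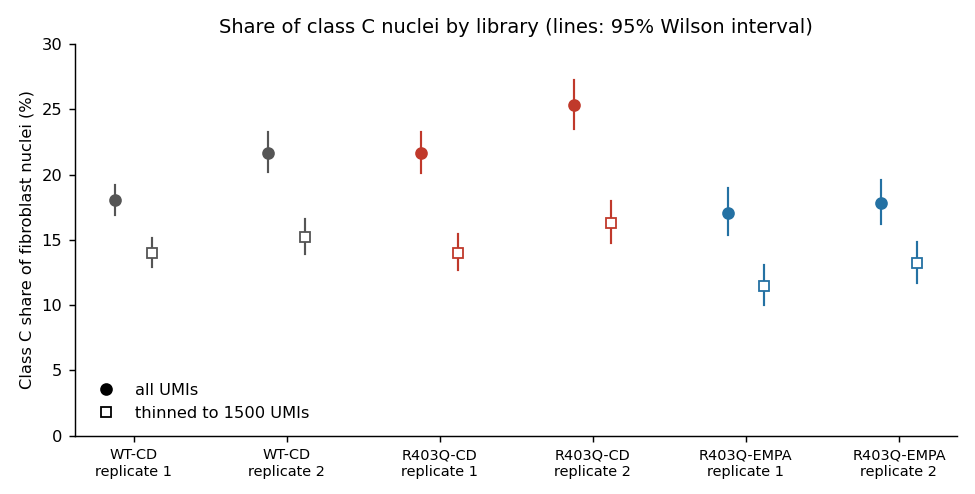
Class C nuclei as a percent of fibroblast nuclei (vertical axis) in each of the 6 libraries, as counted (filled circles) and after thinning to 1500 UMIs (open squares), with 95% Wilson intervals that cover counting error only. Both R403Q-EMPA libraries lie below both R403Q-CD libraries in each form.

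UMI counts of class C nuclei were summed per library and 12355 genes were tested in 1 edgeR quasi-likelihood fit, with the 29 genes of the rule left out. The 3 comparisons share libraries, so their results are given separately. CPM in these paragraphs are scaled by TMM (trimmed mean of M-values).

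Between R403Q-CD and WT-CD no gene passed an adjusted p of 0.05 (0% of 12355), 567 had an unadjusted p under 0.05 (1.76% of all genes higher and 2.83% lower), and 4 were called by DESeq2. Ranked by p, the first 10 genes were mainly higher in WT-CD. Plxna4, a semaphorin receptor, was at 484 and 364 CPM in WT-CD and at 161 and 221 CPM in R403Q-CD (log2 fold change -1.15 ± 0.19 SE, edgeR adjusted p = 0.084). Rbfox1, an RNA splicing factor, was at 365 and 288 against 70.6 and 132 CPM (-1.68 ± 0.27, adjusted p = 0.084). Gcnt2, Vtcn1, Tmeff2, Grip1 and Kcnq5 also had an adjusted p of 0.084, and Sema3e and Mkx had 0.117. Without marker nuclei Plxna4 changed to 0.08, Rbfox1 to -0.53 and Gcnt2 from -1.65 to -0.25, and Vtcn1, Grip1, Sema3e and Mkx fell below the count filter. Only Ptgds, the prostaglandin D synthase, pointed upwards, at 13.2 and 9.4 CPM in WT-CD and 31.5 and 31.1 in R403Q-CD (1.47 ± 0.26, adjusted p = 0.117), and it stayed at 1.38 without marker nuclei (adjusted p = 0.777).

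Among the gene lists in this comparison, 14 of 17 cytosolic heat shock genes had a positive fold change (median 0.20, 2 of them with an unadjusted p under 0.05), and 21 fibroblast growth factor genes (median -0.10), 12 genes of the insulin-like growth factor axis (-0.03), 21 elastic fibre genes (-0.16) and 26 collagens (0.00) held no called gene, with a median over all genes of 0.00. The mesothelial list stood at a median of -0.89 over 8 genes, and its summed level was 547 and 347 CPM in WT-CD, 157 and 284 CPM for R403Q-CD, with 206 and 137 CPM in R403Q-EMPA. All 8 myeloid markers had a positive fold change (median 0.87, 4 with an unadjusted p under 0.05), but their summed levels of 239 and 115 CPM in WT-CD overlapped with 425 and 221 CPM in R403Q-CD. The part of these cell types in the comparison was not tested beyond the values without marker nuclei.

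Empagliflozin in the R403Q mice went with a wider set of differences in class C nuclei. Between R403Q-EMPA and R403Q-CD 26 genes rose (0.21% of those tested) and 6 fell (0.0486%), mainly molecular chaperones on the rising side with clock genes and the potassium channel Kcnk2 on the falling side. All 32 were called again without marker nuclei, and all 32 had the same direction in other fibroblast nuclei, where 15 were called. The difference between the 2 classes of nuclei passed the test for 2 of the 32, Eln among them. Only Hsph1 and Hspa4l were called whichever library was left out: 3 genes were called without R403Q-EMPA replicate 1, 19 without R403Q-EMPA replicate 2, 9 without R403Q-CD replicate 2, and 221 and 215 without either WT-CD library.

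The cytosolic heat shock genes, which encode chaperones that refold proteins, held 6 called members of 17, all higher. Hsph1, a nucleotide exchange factor of the HSP110 family, was at 29.0 and 16.3 CPM in WT-CD, 38.6 and 30.7 for R403Q-CD, with 187 and 178 in R403Q-EMPA. Both empagliflozin libraries lay above the other 4, and the log2 fold change to R403Q-CD was 2.40 ± 0.23 (SE; edgeR adjusted p = 0.0018). Its relative Hspa4l was at 27.3 and 26.1 CPM in R403Q-CD against 94.4 and 107 in R403Q-EMPA (1.91 ± 0.20, adjusted p = 0.0020). Hsp90aa1, the inducible HSP90, was at 47.5 and 40.6 against 111 and 170 CPM (1.66 ± 0.23, adjusted p = 0.013), and the small heat shock gene Hspb1 at 17.4 and 11.2 against 70.0 and 63.6 CPM (2.24 ± 0.39, adjusted p = 0.039). The co-chaperones Dnaja1 (1.22 ± 0.19) and Chordc1 (1.27 ± 0.18) were the other called members.

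Of the 17 heat shock genes, 16 had a positive fold change and 15 of these an unadjusted p under 0.05, against 4.37% of all genes in that direction, with a median of 1.22 against 0.00 over all genes. Hsf1, the transcription factor that drives these genes, stood at 45.2 and 46.0 CPM in R403Q-CD against 44.9 and 45.6 in R403Q-EMPA. Stip1, which joins HSP70 to HSP90 and is not on the list, rose by a log2 fold change of 1.54 ± 0.24 (edgeR adjusted p = 0.021). None of the heat shock genes differed in effect between class C and other fibroblast nuclei at an adjusted p under 0.05.

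Of 22 chaperones of the endoplasmic reticulum, which fold secreted and membrane proteins, 7 rose. This list was chosen after the values were seen, so its count is a description, and all 22 had a positive fold change, with a median of 0.96. Hspa5, the HSP70 of the endoplasmic reticulum, was at 190 and 104 CPM in WT-CD, 104 and 126 for R403Q-CD, with 334 and 309 in R403Q-EMPA (1.48 ± 0.24 to R403Q-CD, edgeR adjusted p = 0.022). Pdia6, a disulphide isomerase, was at 46.9 and 29.0, 23.1 and 24.9, and 107 and 89.1 CPM (2.04 ± 0.25, adjusted p = 0.0059). Both genes were highest in the 2 empagliflozin libraries and lowest in R403Q-CD or WT-CD. Hsp90b1 (1.26 ± 0.20), Hyou1 (1.85 ± 0.27), Calr (1.34 ± 0.21), Pdia4 (1.59 ± 0.29) and the collagen chaperone Serpinh1 (1.45 ± 0.25) were called as well, Hyou1 not with Nkain2 not counted in the rule (adjusted p = 0.106). P4ha1, the collagen prolyl hydroxylase, rose from 202 and 207 to 419 and 480 CPM (1.13 ± 0.15, adjusted p = 0.013).

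The promoters of 4 of these genes are printed as examples of called genes whose promoter window holds a match to 1 of 2 motifs. Most genes of either list that had a window held no match. The sequences are RefSeq, GRCm38.p6, from 250 bases before to 30 after the annotated start, 5′ to 3′ on the strand of the gene, with the motif in capitals. They lie at chr5:149636286-149636565 for Hsph1, chr9:18292017-18292296 for Chordc1, chr2:34771840-34772119 for Hspa5 and chr12:17266339-17266618 for Pdia6. For Hsph1 (minus strand) and Chordc1 (plus strand) the capitals mark the heat shock element, searched as GAANNTTCNNGAA on both strands (overlapping matches joined), and for Hspa5 and Pdia6 (both plus strand) the endoplasmic reticulum stress element, searched as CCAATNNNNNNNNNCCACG on both strands.
Hsph1: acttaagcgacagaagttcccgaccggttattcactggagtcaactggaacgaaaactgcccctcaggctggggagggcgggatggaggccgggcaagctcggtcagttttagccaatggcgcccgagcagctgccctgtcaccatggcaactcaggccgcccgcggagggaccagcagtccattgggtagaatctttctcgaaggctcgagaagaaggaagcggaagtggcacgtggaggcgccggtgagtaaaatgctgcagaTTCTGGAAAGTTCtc
Chordc1: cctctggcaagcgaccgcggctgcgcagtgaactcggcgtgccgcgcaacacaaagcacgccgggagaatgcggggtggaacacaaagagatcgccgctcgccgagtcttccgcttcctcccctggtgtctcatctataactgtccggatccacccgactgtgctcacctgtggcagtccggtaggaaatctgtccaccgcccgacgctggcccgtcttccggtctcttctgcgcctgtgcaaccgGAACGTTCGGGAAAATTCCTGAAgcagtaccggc
Hspa5: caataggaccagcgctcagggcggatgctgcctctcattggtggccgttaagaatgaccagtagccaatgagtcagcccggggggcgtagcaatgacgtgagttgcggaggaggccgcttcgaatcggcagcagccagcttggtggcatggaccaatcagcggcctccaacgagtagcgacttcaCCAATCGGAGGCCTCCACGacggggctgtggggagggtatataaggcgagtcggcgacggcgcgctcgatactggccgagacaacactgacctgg
Pdia6: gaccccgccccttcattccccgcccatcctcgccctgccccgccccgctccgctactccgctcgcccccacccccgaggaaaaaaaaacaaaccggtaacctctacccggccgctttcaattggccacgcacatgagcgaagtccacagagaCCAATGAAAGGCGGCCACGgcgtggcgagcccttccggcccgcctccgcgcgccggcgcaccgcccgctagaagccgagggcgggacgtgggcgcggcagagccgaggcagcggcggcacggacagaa

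In the windows searched, from 250 bases before to 50 after each start, the heat shock element occurred in 0.60% of all 32851 promoter windows. It occurred in 4 of the 13 heat shock genes that had a window (Hsph1, Chordc1, Hspd1 and Hspe1), and in none of 19 genes of the endoplasmic reticulum list or 16 clock genes. The endoplasmic reticulum stress element occurred in 0.12% of all windows, in 7 of those 19 genes (Hspa5, Pdia6, Calr, Hsp90b1, Canx, Dnajc3 and Creld2), and in none of the heat shock or clock genes. In Hspa5 the match lies 65 to 47 bases before the start and in Pdia6 98 to 80 bases before it, while the match of Hsph1 lies 15 to 27 bases past the start. These matches describe letters in a window and say nothing about binding of a factor.

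The clock genes, which encode the circadian oscillator and its outputs, held 2 called members of 18, both lower. The repressor Nr1d1 (REV-ERB alpha) was at 72.4 and 53.1 CPM in WT-CD, 29.2 and 44.7 for R403Q-CD, with 10.2 and 8.5 in R403Q-EMPA, and fell by 1.97 ± 0.35 on the log2 scale against R403Q-CD (edgeR adjusted p = 0.042, and 0.0537 with Nkain2 not counted). The output factor Dbp was at 118 and 89.9, 71.5 and 72.9, and 27.5 and 21.2 CPM, and fell by 1.55 ± 0.23 (adjusted p = 0.017). For both genes the 3 groups formed separate steps, with WT-CD highest. Of the 18 clock genes 9 had a lower level at an unadjusted p under 0.05 and 2 a higher one, against 5.02% and 4.37% of all genes, with a list median of -0.48. Npas2, an activator of the oscillator, had a fold change of 0.94 ± 0.32 (adjusted p = 0.32). The hour of tissue collection is not given in the sources used here, and its part was not tested.

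Other genes that fell were Grm8, from 161 and 174 to 31.5 and 39.2 CPM (log2 fold change -2.26 ± 0.25, edgeR adjusted p = 0.0026), the potassium channel Kcnk2, from 233 and 294 to 86.6 and 106 CPM (-1.46 ± 0.21, adjusted p = 0.013), and the GTPase-activating gene Arhgap28 (-0.89 ± 0.16, adjusted p = 0.047, and 0.146 with Nkain2 not counted). Grm8 was also higher in class C than in all other fibroblasts together, by over 1.5-fold in both empagliflozin libraries too, but its mean level of 138 CPM stood against 108 CPM in class A, with log2 ratios to class A of -0.07 to 2.12 over the 6 libraries. Among rising genes outside the chaperones, the WNT antagonist Dkk3 went from 7.1 and 10.4 to 108 and 24.4 CPM (2.95 ± 0.52, adjusted p = 0.041), with most of its level in R403Q-EMPA replicate 1. Erbb4, a neuregulin receptor, went from 7.5 and 12.8 to 73.2 and 101 CPM (3.06 ± 0.55, adjusted p = 0.043), yet WT-CD replicate 1 was at 41.3 CPM. The microfibril-binding gene Adamtsl2 went from 36.2 and 29.8 to 180 and 123 CPM (2.21 ± 0.30, adjusted p = 0.013).

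**Figure D5:**
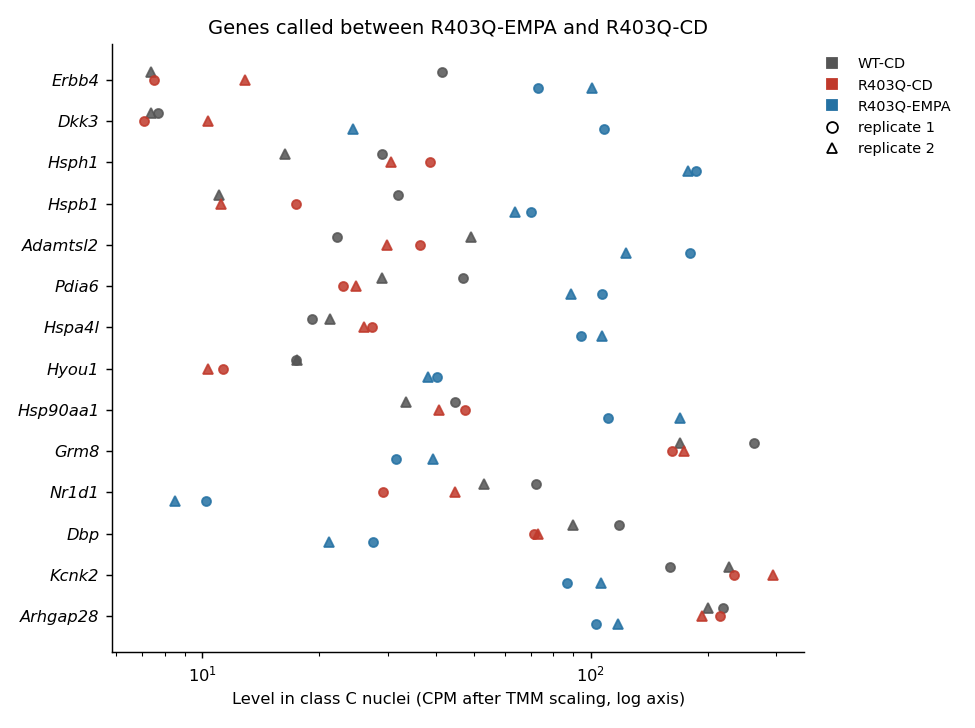
TMM-scaled CPM in class C nuclei (horizontal log axis) of genes called between R403Q-EMPA and R403Q-CD, with colours for the groups, circles for replicate 1 and triangles for replicate 2. Hsph1 is at 187 and 178 CPM in R403Q-EMPA and at or below 38.6 CPM in the other 4 libraries, and Nr1d1 is at 10.2 and 8.5 CPM in R403Q-EMPA and at or above 29.2 CPM in the others.

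Eln, which encodes elastin, the core of the elastic fibre, rose in class C nuclei by more than in other fibroblast nuclei. It was at 124 and 161 CPM in WT-CD, 125 and 123 for R403Q-CD, with 227 and 275 in R403Q-EMPA. The rise against R403Q-CD was 1.01 ± 0.17 (log2, edgeR adjusted p = 0.037) in class C nuclei and 0.37 in other fibroblast nuclei (adjusted p = 0.42). The difference of these effects was 0.65 ± 0.11 in the interaction of class and group with library as a block (adjusted p = 0.0070), and 0.61 without marker nuclei (adjusted p = 0.027), but 0.48 with Nkain2 not counted in the rule (adjusted p = 0.27). It was the only elastic fibre gene called of 21, of which 18 had a positive fold change (median 0.48). Of 26 collagens none was called, with 14 higher and 5 lower at an unadjusted p under 0.05 (4.37% and 5.02% of all genes) and a median of 0.53. The higher R403Q-EMPA library was replicate 1, the one with 240 class D nuclei, for both Col1a1 and Col3a1, and the part of that library was not tested. Col1a1 was at 119 and 125 CPM in R403Q-CD against 333 and 172 CPM in R403Q-EMPA, and Col3a1 at 423 and 363 against 947 and 461 CPM.

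Among the pathways of the rule genes, none of 21 tested fibroblast growth factor genes and none of 12 genes of the insulin-like growth factor axis was called between R403Q-EMPA and R403Q-CD, with medians of -0.07 and -0.15. Fgfr2, the receptor of FGF10, was at 105 and 120 CPM in R403Q-CD against 92.9 and 107 in R403Q-EMPA. Igf1 was at 295 and 342 against 294 and 366 CPM. None of 31 TGF-beta and BMP genes was called (median 0.15), and of 26 WNT genes 1 was called, Dkk3.

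Against WT-CD, class C nuclei of R403Q-EMPA mice had 49 higher genes (0.397%) and 87 lower ones (0.704%). This comparison differs in genotype and diet at once, so the 2 cannot be told apart in it. Of the 136 genes 63 were called without marker nuclei, 27 fell below the count filter then, and 11 were called whichever library was left out. In other fibroblast nuclei 103 of the 136 had the same direction and 54 were called. The genes with the largest drops belonged to the marker nuclei: Vtcn1 was at 29.4 and 21.7 CPM in WT-CD and 0.0 in both R403Q-EMPA libraries, at least 18.4-fold lower given the floor of 3 counts over the group, and Cybrd1 was at least 9.33-fold, Dpysl5 at least 7.08-fold, 2010001K21Rik at least 6.47-fold and Gm47547 at least 5.87-fold lower. All 5 fell below the count filter without marker nuclei, as did Slc26a3, Dync1i1, Gm8113, Pcdh15 and 4932438H23Rik, which had the next lowest fold changes.

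Chaperone genes led the higher side of this comparison, as they did against R403Q-CD. Hsph1 rose by 3.01 ± 0.24 (log2, edgeR adjusted p = 0.00022), Hspa4l by 2.31 ± 0.20 (adjusted p = 0.00032) and Stip1 by 2.17 ± 0.25 (adjusted p = 0.0019). Heat shock genes were called in 7 of 17 cases and endoplasmic reticulum chaperones in 6 of 22 (2 without marker nuclei), with medians of 1.48 and 0.75. Several others rested on 1 library. Tnc, the matrix protein tenascin-C, was at 0.9 and 0.0 CPM in WT-CD and 42.5 and 6.4 in R403Q-EMPA (5.73 ± 1.03, adjusted p = 0.019). Nppa, the atrial natriuretic peptide gene of cardiomyocytes, was at 13.2 and 5.7 against 227 and 43.5 CPM (3.88 ± 0.60, adjusted p = 0.0085). In R403Q-CD Nppa was at 38.6 and 37.7 CPM, near R403Q-EMPA replicate 2. The 8 cardiomyocyte markers summed to 454 to 669 CPM in class C nuclei and 468 to 798 CPM in endothelial nuclei. The part of free cardiomyocyte RNA was not tested. Ltbp2, a latent TGF-beta binding protein, was at 5.1 and 8.2 CPM in WT-CD against 105 and 13.8 in R403Q-EMPA (3.21 ± 0.65, adjusted p = 0.035, but 0.0511 without marker nuclei and 0.0775 with Nkain2 not counted). Dkk3 (3.18 ± 0.53) and the complement gene C4b (2.54 ± 0.37) were likewise highest in R403Q-EMPA replicate 1, while Ahsg was at 3.0 and 3.7 against 40.1 and 30.8 CPM (3.40 ± 0.39, adjusted p = 0.0019). Without that library, which held 240 class D nuclei, Tnc, Nppa, Ltbp2 and Ahsg had log2 fold changes of 3.75, 2.21, 1.05 and 3.19 and edgeR adjusted p-values of 0.46, 0.10, 0.69 and 0.052, in a fit that assumes the lone R403Q-EMPA library to vary like the other groups.

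Of the clock genes 1 rose and 5 fell against WT-CD: Npas2 by 1.66 ± 0.33 (edgeR adjusted p = 0.035), Nr1d1 by -2.72 ± 0.33, Dbp by -2.07 ± 0.23, and, at smaller sizes, Hlf (-1.02), Nr1d2 (-0.79) and Tef (-0.71). Without marker nuclei Npas2 and Tef were not called. Igf1, the ligand that the Pappa protease makes available, was at 155 and 203 CPM in WT-CD, 295 and 342 for R403Q-CD, with 294 and 366 in R403Q-EMPA. Both R403Q groups lay above WT-CD without overlap. It rose by 0.88 ± 0.18 against WT-CD in R403Q-EMPA (adjusted p = 0.039), by 0.83 without marker nuclei (adjusted p = 0.084), and by 1.00 in other fibroblast nuclei (adjusted p = 0.036). Bmp4 fell by 0.87 ± 0.18 on the log2 scale (adjusted p = 0.039).

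Whether a group effect differed between class C and other fibroblast nuclei was tested for 13841 genes by the interaction of class and group, with the library as a block. Differences passed for 58 genes (0.419%) between R403Q-CD and WT-CD, 30 (0.217%) between R403Q-EMPA and R403Q-CD, and 163 (1.18%) between R403Q-EMPA and WT-CD. Without marker nuclei the counts were 4, 11 and 18, of which 4, 9 and 13 were among the first counts. The epicardial mesothelial list alone held 4, 3 and 7 of the called genes among its 8 tested members, all lower. Igfbp5, an IGF-binding protein, had the smallest p for empagliflozin within R403Q mice, with a difference of -2.51 ± 0.17 (edgeR adjusted p = 1.67e-09), and the difference was 0.10 without marker nuclei (adjusted p = 0.99). With Nkain2 not counted in the rule the counts were 3, 10 and 25.

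Genes called in the interaction with and without marker nuclei fell into small groups. The macrophage genes F13a1 (1.58 ± 0.27) and Ctsc (2.34 ± 0.36), with the metalloproteinase Adam12 (1.05 ± 0.18) and the smooth muscle myosin Myh11 (3.40 ± 0.62), had a more positive effect of R403Q in class C than in other fibroblast nuclei (edgeR adjusted p = 0.0027, 0.00080, 0.0032 and 0.0056). With Nkain2 not counted in the rule none of the 4 passed the threshold. Myh11 was at 5.1 and 3.3 CPM in WT-CD and at 0.95 and 17.6 CPM in R403Q-CD in class C nuclei, and at 23.2 and 19.5 against 4.2 and 4.3 CPM in other fibroblast nuclei, and the sign of the difference turned with Nkain2 not counted. The globin genes Hbb-bs (1.25 ± 0.12, adjusted p = 1.12e-06), Hba-a1 (1.28 ± 0.20) and Hba-a2 (1.17 ± 0.24), which mark red blood cells, were lower in R403Q-EMPA than in R403Q-CD in both classes of nuclei, and less so in class C. With Nkain2 not counted Hbb-bs kept its call (1.10, adjusted p = 0.0012), but Hba-a1 (0.92, adjusted p = 0.37) and Hba-a2 (1.13, adjusted p = 0.38) did not. Against class A nuclei alone the differences were -0.29, -0.08 and -0.27. Hbb-bs was at 192 and 385 CPM in R403Q-CD against 171 and 124 in R403Q-EMPA in class C nuclei, and at 451 and 927 against 167 and 129 in other fibroblast nuclei. Unc13b, a vesicle priming factor, was at 16.6 and 18.4 against 38.1 and 37.4 CPM in class C nuclei and at 27.2 and 28.5 against 18.7 and 23.2 in the others (1.54 ± 0.27, adjusted p = 0.0070, and 0.076 with Nkain2 not counted).

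Ccbe1, a secreted factor that activates VEGFC in lymphatic growth, was at 935 and 1004 CPM in R403Q-CD against 435 and 628 in R403Q-EMPA in class C nuclei. In other fibroblast nuclei it was at 428 and 470 against 136 and 213 CPM, so the level was lower with empagliflozin in both, and less so in class C by 0.51 ± 0.08 (log2, edgeR adjusted p = 0.0047). This difference was 0.47 without marker nuclei (adjusted p = 0.012) and 0.27 with Nkain2 not counted (adjusted p = 0.59). Mrc1, the mannose receptor of macrophages, and Il34, a ligand of the CSF1 receptor, had positive differences against WT-CD (1.78 and 1.61), which for Mrc1 was -0.04 with Nkain2 not counted, and the myeloid markers together stood at 115 to 425 CPM in class C nuclei and 222 to 488 CPM in other fibroblast nuclei. Their part in these values was not tested.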

How the data were processed

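Single nuclei were isolated from fresh frozen left ventricle and libraries were made on the 10x platform. The authors deposited raw UMI counts per barcode and gene (33696 genes, 69249 barcodes), made per their processing notes with Cell Ranger 8.0.1 on GRCm39; the annotation and the handling of intronic reads are not given in the sources used here. Counts were not normalised by the authors.

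Barcodes with at least 500 UMIs, at least 300 genes and at most 5% mitochondrial UMIs were kept (48438). Possible doublets were scored with Scrublet and left out only in an alternative. Endothelial nuclei, used as a background, had at least 3 UMIs of endothelial markers and at most 1 UMI of the fibroblast gate genes. Intervals cover counting error only. The members, the gene lists and the comparisons were chosen with earlier results of these data known.

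Replicates were numbered in accession order. Counts of class C nuclei were summed per library (949585 to 2556712 UMIs) and tested with edgeR 4.0.16 (quasi-likelihood, TMM, prior count 2, Benjamini-Hochberg adjustment, threshold 0.05) over all 3 groups, leaving 3 residual degrees of freedom. The interaction of class and group was fitted over 12 sums with the library as a block. DESeq2 1.42.0 was an alternative. Ratios of class C to other nuclei were log2 of CPM plus 1 and carry no test, and CPM outside the edgeR fits are not scaled by TMM. Genes were named by list, as the 10 largest and 10 smallest called fold changes with separate groups (the 10 smallest p-values where under 5 were called), and as the 25 higher and 15 lower genes of class C whose ratio nearest to 0 among the 6 libraries was farthest from 0. Genes named outside this rule were chosen after their values were seen. Other alternatives were leaving out each library, no low-count filter, stricter class rules, classes A and B as the comparison, leaving out marker nuclei and not counting Nkain2; the last 2 were chosen after seeing the data. Promoter sequences are RefSeq, GRCm38.p6, and were matched by symbol. Some results are not reported here. The scripts were tested on simulated data. Python 3.11.15, scanpy 1.11.5 and R 4.3.3 were used.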

Additional observations from a re-analysis of the deposited data

Results flagged for a closer look

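The genes below had an effect of group in class C nuclei that differed from the effect in other fibroblast nuclei by the interaction term of the edgeR fit. Values are differences of log2 fold changes. They were chosen as up to 10 highest and 10 lowest of each comparison among called genes for which the difference between the classes within a library did not overlap between groups. Levels in class C nuclei alone can overlap.

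Between R403Q-CD and WT-CD the effect was more positive in class C nuclei for Myh11 (3.40), Ctsc (2.34), F13a1 (1.58), Stab1 (1.44), Mrc1 (1.31), Adam12 (1.05) and Chsy3 (0.41). Of these, Stab1, Mrc1 and F13a1 are macrophage genes. Without the nuclei that carried mesothelial or Schwann markers, Stab1, Mrc1 and Chsy3 were no longer called (edgeR adjusted p = 0.245, 0.358 and 0.371). It was more negative for Stum (-3.92), Sema3e (-3.21), Wwc1 (-2.99), Lama3 (-2.95), Has1 (-2.92), Vtcn1 (-2.78), Gm29266 (-2.72), Upk1b (-2.58), Pcdh15 (-2.51) and Cftr (-2.50). None of these 10 was called without the marker nuclei.

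Between R403Q-EMPA and R403Q-CD the effect was more positive in class C nuclei for Ntm (2.61), Unc13b (1.54), Hba-a1 (1.28), Hbb-bs (1.25), Hba-a2 (1.17), Itga8 (0.71), Eln (0.65), Ccbe1 (0.51) and Timp3 (0.42). Of these, Ntm, Itga8 and Timp3 were no longer called without marker nuclei (edgeR adjusted p = 0.214, 0.0741 and 0.0517). It was more negative for Ptprz1 (-5.96), Myh11 (-4.80), Slc39a8 (-3.90), Upk3b (-3.57), Atp6v0a4 (-3.33), Muc16 (-3.17), Dlgap1 (-2.98), Myo5b (-2.68), Igfbp5 (-2.51) and Kcnd2 (-2.48). Myh11 was the only one of these 10 lower genes called without the marker nuclei, but its difference was -0.29 with Nkain2 not counted (edgeR adjusted p = 0.999). Its level in class C nuclei was 0.95 and 17.6 CPM in R403Q-CD against 1.59 and 0 CPM in R403Q-EMPA, so that only R403Q-CD replicate 2 stood apart. The Myh11 difference was -1.64 without that library (edgeR adjusted p = 0.954), and it was not called without R403Q-EMPA replicate 1 or replicate 2 either (adjusted p = 0.532 and 0.113).

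Between R403Q-EMPA and WT-CD the effect was more positive for Ccl21a (2.20), Inpp5d (1.79), Mrc1 (1.78), Stab1 (1.71), Impa2 (1.67), Il34 (1.61), Unc13b (1.31), Slc16a7 (1.11) and Hba-a1 (1.08). Without marker nuclei Inpp5d, Stab1, Impa2, Slc16a7 and Hba-a1 were no longer called (edgeR adjusted p = 0.0531, 0.0531, 0.123, 0.139 and 0.0604). It was more negative for Egfem1 (-6.80), Slc26a3 (-5.67) and Slc39a8 (-5.64). A further 6 genes were at 0 UMIs in class C nuclei of both R403Q-EMPA libraries, so the adjusted p of the edgeR interaction is given in place of a fold: Vtcn1 (0.000104), 2010001K21Rik (0.00422), Cybrd1 (0.00745), Dpysl5 (0.0197), Gm47547 (0.0232) and Slc6a4 (0.0377). None of these 9 lower genes passed the count filter without marker nuclei.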

How the results depend on the processing

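No paired analysis was possible because the replicate numbers follow accession order and pair no libraries. The share of class C nuclei differed between R403Q-CD and WT-CD by -0.29 points when taken over all nuclei past quality control, and the thinned difference ranged from -0.61 to 1.67 points when 1 library was left out. Calls in class C nuclei ranged from 0 to 103 for genotype on control diet, from 3 to 221 for empagliflozin within R403Q mice and from 12 to 409 for R403Q-EMPA against WT-CD when 1 library was left out, with the 3 and the 12 without R403Q-EMPA replicate 1. Without a low-count filter they numbered 114, 321 and 509. DESeq2 gave 4 and 58 for the first 2 comparisons, a fit of only the 2 groups gave 193 for empagliflozin within R403Q mice, while R403Q-EMPA against WT-CD gave 67 without marker nuclei and 58 with Nkain2 not counted.

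Interaction calls, in the same order, numbered 4, 11 and 18 without marker nuclei, 3, 10 and 25 with Nkain2 not counted, 104, 75 and 288 without a filter, and 17, 10 and 36 against class A. Empagliflozin within R403Q mice gave 18 at a class sum of at least 3 UMIs. Leaving out 1 library gave 20 to 64, 6 to 50 and 57 to 171. Against class B, 194 genes differed in all libraries, against 90 in the main description.

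Signs turned as follows. Without marker nuclei Plxna4 was 0.076, Lama3 0.18 and Igfbp5 0.10, and the ratios of Slc35f1, Zfp536 and Chl1 were -0.50, -0.16 and -0.46. With Nkain2 not counted Myh11 was -1.24, Gm29266 0.024 and Mrc1 -0.043. Against class A the interactions were 0.64 for Cftr, -0.082 for Hba-a1, -0.29 for Hbb-bs, -0.27 for Hba-a2 and 2.43 for Muc16, and the ratios 0.73 for Lin7a, 0.44 for Pde8b, 0.11 for Serpini1, 0.39 for Opcml, 0.025 for Mfap5, 1.53 for Cmah and 1.95 for Tmem100. Against class B the ratios were 0.69 for Lin7a, 0.94 for Mdga2, 0.94 for Abcc9, 0.28 for Pde8b and 0.34 for Kcnj8. The causes were not tested. With 2 libraries a group, a share difference cannot pass the threshold in the exact permutation test, and no model of the shares was fitted.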
